A study of Sus scrofa with 10 samples.

Results

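The genes described here make serine and pass its carbon into the folate pool: PHGDH, PSAT1, PSPH, SHMT1, SHMT2, MTHFD1, MTHFD2, MTHFD1L and ALDH1L2, together with ATF4, a transcription factor that controls many of them. They are 10 of the 12378 genes of the deposited table that carry a symbol, taken by that symbol, and all 10 were measured in every library. Among the folate enzymes SHMT1 and MTHFD1 are cytosolic, so the one-carbon genes are not mitochondrial throughout. The 10 genes were selected on results of the same 10 libraries and the same contrast, the deposited log2 values of CTEPH against Sham. Their differences between the groups are therefore a description of these pigs and not independent evidence.

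The tissue was right ventricle from pigs. The 5 CTEPH pigs modelled chronic thromboembolic pulmonary hypertension, a disease in which clots obstruct the lung arteries and raise the pressure the right ventricle pumps against, and the 5 Sham pigs were their controls. Each pig gave 1 library. The CTEPH libraries are s1, s3, s4, s5 and s9, and the Sham libraries are s2, s6, s7, s8 and s10. The sources used here give no strain, sex, age, method of induction or time after surgery.

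In cells, serine is made from a glycolytic intermediate by PHGDH, PSAT1 and PSPH in turn. Serine hydroxymethyltransferases then split serine into glycine and a single carbon unit carried on folate, SHMT1 in the cytosol and SHMT2 in mitochondria. Mitochondrial MTHFD2, MTHFD1L and ALDH1L2 convert that unit to formate or carbon dioxide. Cytosolic MTHFD1 takes up formate for the synthesis of purines, thymidylate and methionine. In adult heart muscle PHGDH is normally a minor transcript, and ATF4 switches the pathway on when mitochondria or the supply of amino acids fail.

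Expression was deposited as log2 values that are nearly identical in distribution between libraries, with library medians of 9.31. Whole counts could be read back for 85.8% of all values, and for 9 of the 10 genes in every library, ATF4 being too abundant. These counts are known up to a common factor of 2, and they give the depth of each library relative to the others. Relative depth averaged 1.05 ± 0.295 over CTEPH libraries and 1.01 ± 0.295 over Sham libraries (SD, n = 5 each; exact permutation p = 0.817, two-sided), with a range of 0.725 to 1.52 over all libraries. The cardiomyocyte marker list was measured in 7 of 8 genes, MYH7 having no row under that symbol, and none of the 7 was at 0. A gene is called when its limma p-value, adjusted by Benjamini-Hochberg across the whole table, is under 0.05.

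Across all genes 723 were called, 4.62% of those tested, of which 443 (2.83%) were higher and 280 (1.79%) were lower in CTEPH. Among the 10 serine and one-carbon genes 2 were called. PHGDH rose and SHMT1 fell, and the other 8 did not pass the test. The log2 difference was positive for 8 of the 10 genes and negative for SHMT1 and ATF4, with a median of 0.37, against a median of -0.03 over all genes tested. Over all genes 46.4% of differences were positive. When each library was instead scaled to the 6 measured of 8 housekeeping genes, every difference, and with it the median over all genes, moved by -0.11, and the calls were 333 higher and 419 lower, while the sign of each of the 10 genes was kept and the same 2 were called. The groups did not overlap for PHGDH alone of the 10, with every CTEPH library higher. Of all genes tested, 3.70% had all CTEPH libraries above all Sham libraries and 2.87% had all below.

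**Figure D1:**
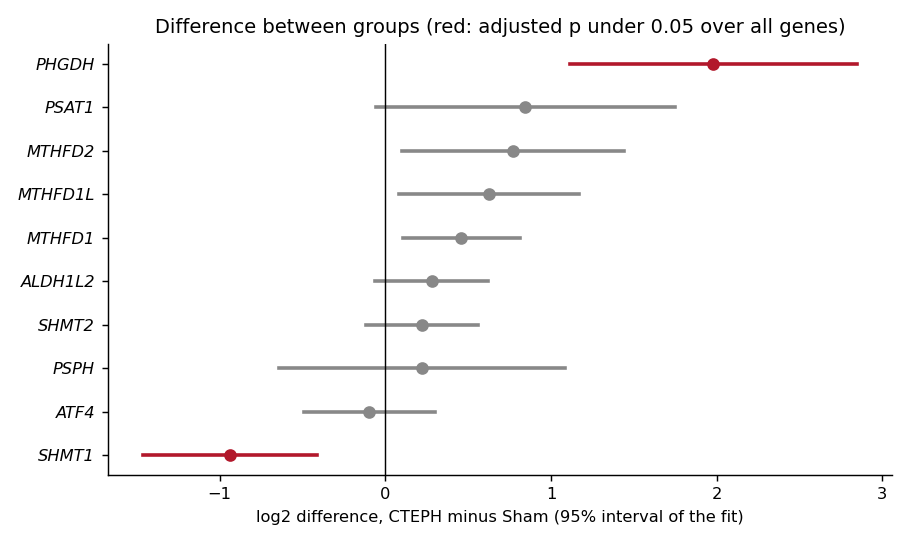
Log2 difference between CTEPH and Sham right ventricles (x axis) for each of the 10 genes (rows), with the 95% interval of the fit over all genes. Points in red passed an adjusted p of 0.05. PHGDH lies farthest to the right at 1.98 and SHMT1 farthest to the left at -0.94.

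PHGDH, phosphoglycerate dehydrogenase, catalyses the first step of serine synthesis and commits glycolytic carbon to it. Its gene (ENSSSCG00000006717) lies on chromosome 4 at 101445977 to 101478144 of Sscrofa11.1 and overlaps no neighbour in the RefSeq gene table. The log2 value was 7.56 in s1, 6.38 in s3, 7.51 in s4, 8.81 in s5 and 6.54 in s9 of CTEPH, against 5.45 in s2, 5.67 in s6, 5.21 in s7, 5.21 in s8 and 5.38 in s10 of Sham. All 5 CTEPH libraries lay above all 5 Sham libraries, s5 far above the others and s3 nearest to Sham. The CTEPH mean was 7.36 ± 0.97 and the Sham mean 5.38 ± 0.19 (SD, n = 5 per group), a difference of 1.98 ± 0.40 (SE; 95% interval 1.11 to 2.84; limma adjusted p = 0.0151). Behind these values stood 90, 39, 152, 245 and 34 counts in CTEPH libraries s1, s3, s4, s5 and s9, and 24, 38, 13, 15 and 17 counts in Sham libraries s2, s6, s7, s8 and s10. The log2 difference equals a fold of 3.94. Scaled for depth, the mean count in CTEPH was 4.91 times that in Sham, a ratio of means in which s5 had the highest scaled count, 225. The Sham values thus rest on few counts, and the CTEPH libraries spread far more widely than the Sham libraries. PHGDH was called with any single library left out, at adjusted p of 0.00802 to 0.0407.

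PSAT1, the aminotransferase of the next step, lies on chromosome 1 at 231142673 to 231172364 (ENSSSCG00000005287). Its log2 value was 7.26 in s1, 6.81 in s3, 8.77 in s4, 8.35 in s5 and 7.38 in s9 of CTEPH, against 6.86 in s2, 7.49 in s6, 6.94 in s7, 7.41 in s8 and 5.64 in s10 of Sham. Libraries s4 and s5 exceeded every Sham library, s10 was the lowest of the 10, and the other values overlapped. The means were 7.71 ± 0.81 in CTEPH and 6.87 ± 0.74 in Sham (SD, n = 5 per group), and the difference of 0.85 ± 0.42 (SE; 95% interval -0.06 to 1.75) did not pass the test (limma adjusted p = 0.280).

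PSPH, the phosphatase that releases serine in the last step, lies on chromosome 3 at 16877904 to 16903062 (ENSSSCG00000007748). PSPH had a log2 value of 6.74 in s1, 5.12 in s3, 6.46 in s4, 6.67 in s5 and 7.77 in s9 of CTEPH, against 6.33 in s2, 5.85 in s6, 6.53 in s7, 6.36 in s8 and 6.58 in s10 of Sham. CTEPH held both the highest library, s9, and the lowest, s3, and the Sham values lay between them. The difference was 0.22 ± 0.40 (SE; 95% interval -0.64 to 1.08; limma adjusted p = 0.805), and it changed sign to -0.08 without s9 and to -0.06 when libraries were weighted by their quality. Of the 3 enzymes of serine synthesis, then, the first was called and the next 2 were not. Within a library, PHGDH minus PSAT1 was -0.35 ± 0.73 in CTEPH and -1.49 ± 0.74 in Sham, and PHGDH minus PSPH was 0.81 ± 1.24 in CTEPH and -0.95 ± 0.46 in Sham (log2 values; SD over 5 libraries). Both gaps overlapped between the groups and were not tested.

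**Figure D2:**
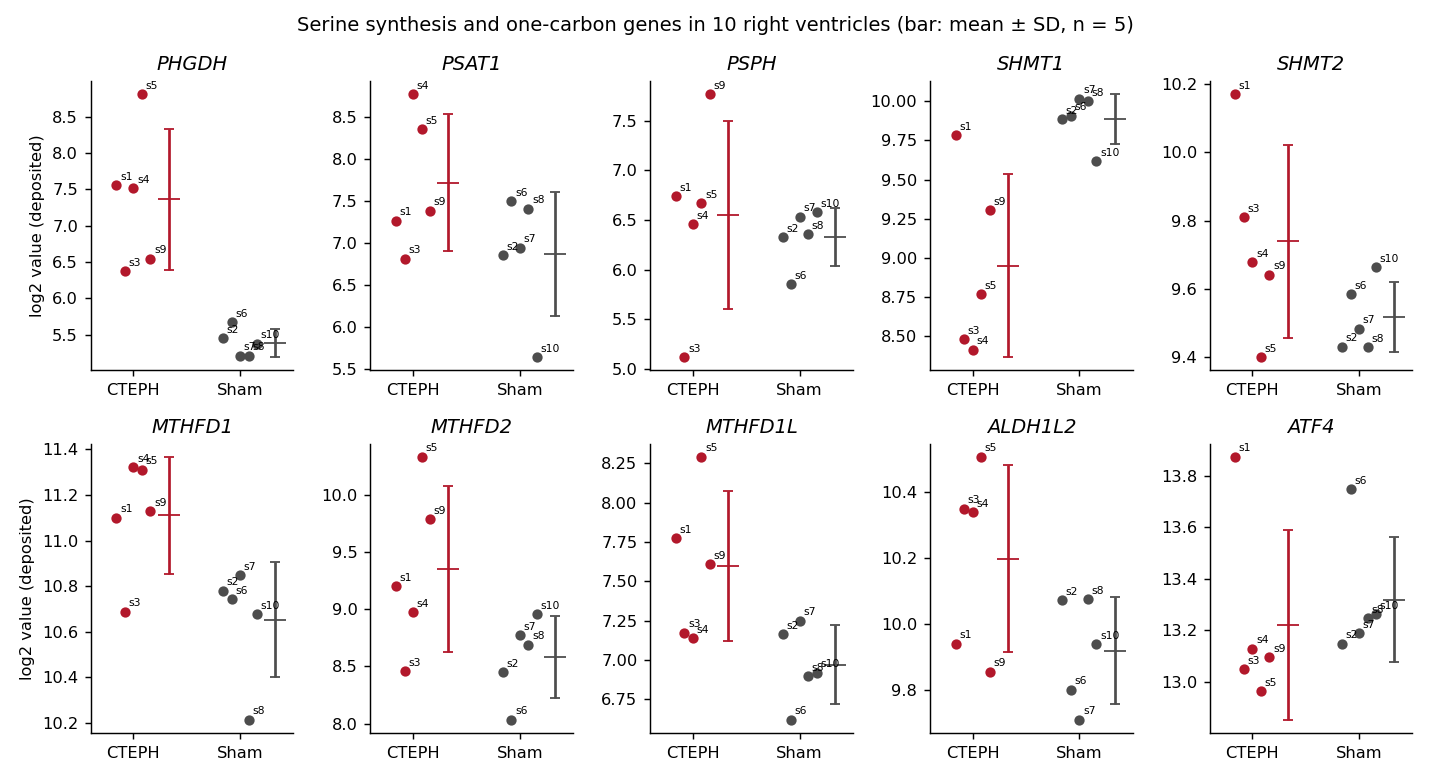
Deposited log2 value (y axis, a separate range for each gene) of the 10 genes in the 5 CTEPH and 5 Sham libraries, each point labelled with its library, with the mean ± SD (n = 5) beside the points. PHGDH has no overlap between the groups, SHMT1 has 4 CTEPH libraries below all Sham libraries, and the SD is larger in CTEPH than in Sham for all 10 genes, by the least for MTHFD1 (0.26 in CTEPH and 0.25 in Sham).

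SHMT1, the cytosolic serine hydroxymethyltransferase, lies on chromosome 12 at 60414421 to 60435451 (ENSSSCG00000036208). SHMT1 had a log2 value of 9.78 in s1, 8.48 in s3, 8.41 in s4, 8.77 in s5 and 9.31 in s9 of CTEPH, against 9.89 in s2, 9.91 in s6, 10.02 in s7, 10.0003 in s8 and 9.62 in s10 of Sham. CTEPH libraries s3, s4, s5 and s9 lay below all Sham libraries, and s1 lay within the Sham range. The means were 8.95 ± 0.58 in CTEPH and 9.89 ± 0.16 in Sham (SD, n = 5 per group). SHMT1 thus fell by 0.94 ± 0.24 (SE; 95% interval of the difference -1.46 to -0.41; limma adjusted p = 0.0462). Scaled for depth, the mean count in CTEPH was 0.570 times that in Sham. The call lies close to the threshold: it was lost, at adjusted p of 0.0661 to 0.107, when any 1 of CTEPH s3, s4 and s5 or of the 5 Sham libraries was left out, and it was kept without s1 (0.00613) or s9 (0.0360), all from limma. SHMT1 overlaps SMCR8 by 176 bases in the RefSeq gene table, and the sources used here do not say whether reads were counted by strand. SMCR8 itself averaged 9.22 in CTEPH and 9.60 in Sham, a difference of -0.39 ± 0.21 (SE; limma adjusted p = 0.319).

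SHMT2, the mitochondrial enzyme for the same reaction, lies on chromosome 5 at 22535780 to 22540322 (ENSSSCG00000037077). Its log2 value was 10.17 in s1, 9.81 in s3, 9.68 in s4, 9.40 in s5 and 9.64 in s9 of CTEPH, against 9.43 in s2, 9.58 in s6, 9.48 in s7, 9.43 in s8 and 9.66 in s10 of Sham. Library s5 was the lowest of the 10 and s1 the highest, both from CTEPH. The difference was 0.22 ± 0.16 (SE; 95% interval -0.12 to 0.56; limma adjusted p = 0.469).

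Set against each other within a library, the hydroxymethyltransferase pair separated the groups. The log2 value of SHMT2 minus that of SHMT1 was 0.39 in s1, 1.33 in s3, 1.26 in s4, 0.63 in s5 and 0.34 in s9 of CTEPH, against -0.46 in s2, -0.32 in s6, -0.53 in s7, -0.57 in s8 and 0.05 in s10 of Sham. It averaged 0.79 ± 0.48 in CTEPH and -0.37 ± 0.25 in Sham (SD, n = 5 per group), with no overlap. The gap thus differed by 1.16 between the groups, mostly through SHMT1, at -0.94, and less through SHMT2, at 0.22 and not called. No test was made of a gap chosen from these genes, and the share of all gene pairs without overlap was not computed. Values are not scaled by gene length, so the sign of the gap within a library does not say which transcript was more abundant. The other cytosolic and mitochondrial partners overlapped between the groups. MTHFD1L minus MTHFD1 was -3.51 ± 0.43 in CTEPH and -3.68 ± 0.29 in Sham. ALDH1L2 minus ALDH1L1, its cytosolic counterpart, was 5.73 ± 1.04 in CTEPH and 4.99 ± 0.82 in Sham. MTHFD2 minus MTHFD2L, a second mitochondrial dehydrogenase of the same kind, was 0.83 ± 0.73 in CTEPH and 0.00 ± 0.36 in Sham.

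**Figure D3:**
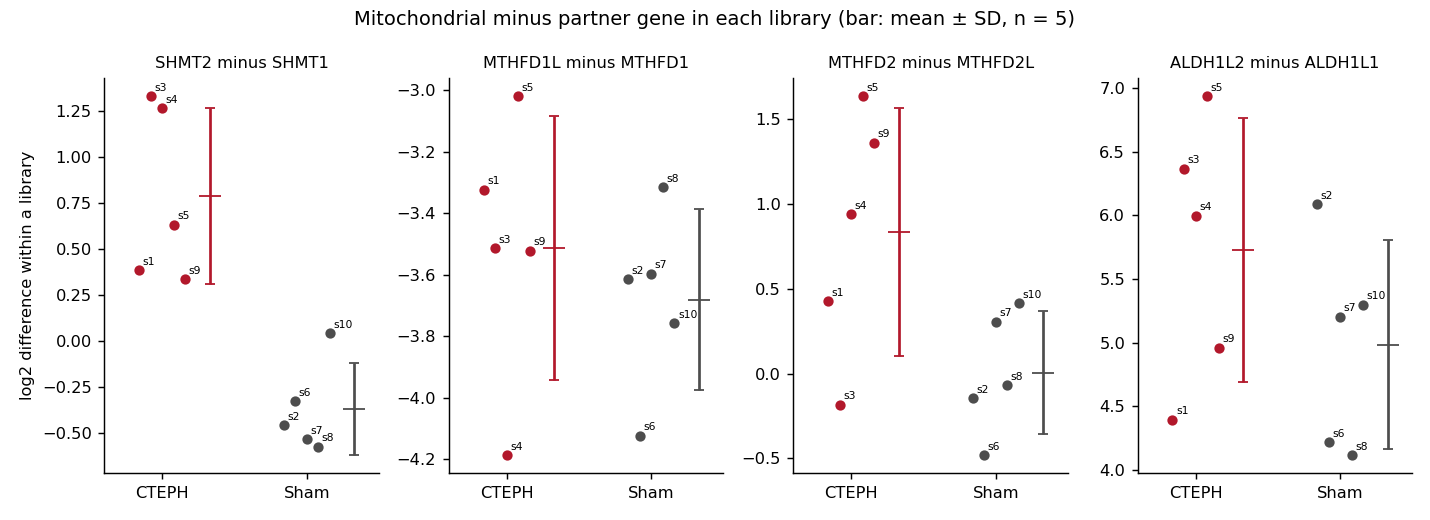
Log2 difference between partner genes within each library (y axis, a separate range for each pair) in 5 CTEPH and 5 Sham libraries, with mean ± SD (n = 5) beside the points. The CTEPH libraries sit between 0.34 and 1.33 for SHMT2 minus SHMT1, above all Sham libraries, and the other 3 pairs overlap.

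MTHFD2, the mitochondrial dehydrogenase and cyclohydrolase that is low in most adult tissues, lies on chromosome 3 at 68819171 to 68833641 (ENSSSCG00000008289). On the log2 scale it measured 9.20 in s1, 8.46 in s3, 8.98 in s4, 10.33 in s5 and 9.79 in s9 of CTEPH, against 8.45 in s2, 8.03 in s6, 8.77 in s7, 8.69 in s8 and 8.96 in s10 of Sham. Only s3 of the CTEPH libraries lay within the Sham range. The means were 9.35 ± 0.73 in CTEPH and 8.58 ± 0.36 in Sham (SD, n = 5 per group), and the difference of 0.77 ± 0.31 (SE; 95% interval 0.10 to 1.44) did not pass after adjustment (limma adjusted p = 0.181).

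MTHFD1L, the mitochondrial synthetase that releases formate, lies on chromosome 1 at 15140929 to 15330265 (ENSSSCG00000004092). On the log2 scale it measured 7.78 in s1, 7.17 in s3, 7.14 in s4, 8.29 in s5 and 7.61 in s9 of CTEPH, against 7.17 in s2, 6.62 in s6, 7.25 in s7, 6.90 in s8 and 6.92 in s10 of Sham. Libraries s1, s5 and s9 exceeded all Sham libraries, and s3 and s4 lay within the Sham range. The difference was 0.63 ± 0.25 (SE; 95% interval 0.08 to 1.17; limma adjusted p = 0.180).

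ALDH1L2, the mitochondrial dehydrogenase that oxidises formyl-folate to carbon dioxide, lies on chromosome 5 at 79492672 to 79558702 (ENSSSCG00000000839). Log2 values were 9.94 in s1, 10.35 in s3, 10.34 in s4, 10.50 in s5 and 9.85 in s9 of CTEPH, against 10.07 in s2, 9.80 in s6, 9.71 in s7, 10.07 in s8 and 9.94 in s10 of Sham. Here s3, s4 and s5 lay above all Sham libraries and s1 and s9 did not. The difference was 0.28 ± 0.16 (SE; 95% interval -0.06 to 0.62; limma adjusted p = 0.356).

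MTHFD1, the cytosolic enzyme with 3 activities that loads formate onto folate, lies on chromosome 7 at 88471317 to 88533690 (ENSSSCG00000002269). Log2 values were 11.10 in s1, 10.69 in s3, 11.32 in s4, 11.31 in s5 and 11.13 in s9 of CTEPH, against 10.78 in s2, 10.74 in s6, 10.85 in s7, 10.21 in s8 and 10.68 in s10 of Sham. All CTEPH libraries but s3 lay above all Sham libraries. The means were 11.11 ± 0.26 in CTEPH and 10.65 ± 0.25 in Sham (SD, n = 5 per group), and the difference of 0.46 ± 0.16 (SE; 95% interval 0.11 to 0.81) did not pass after adjustment (limma adjusted p = 0.134). MTHFD1, MTHFD2 and MTHFD1L each had an unadjusted limma p under 0.05, as did 20.3% of all genes tested. Of these 3 genes and SHMT2 and ALDH1L2, each overlaps at least 1 neighbour in the RefSeq gene table, by 123 bases for MTHFD2 with SLC4A5 and by up to 6963 bases for ALDH1L2 with C5H12orf45. The overlap of MTHFD1 with ZBTB25 is 1736 bases, and ZBTB25 had a difference of -0.25 ± 0.14 (SE; limma adjusted p = 0.370).

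ATF4 lies on chromosome 5 at 8742964 to 8745752 (ENSSSCG00000059058). Log2 values were 13.87 in s1, 13.05 in s3, 13.13 in s4, 12.96 in s5 and 13.10 in s9 of CTEPH, against 13.15 in s2, 13.75 in s6, 13.19 in s7, 13.25 in s8 and 13.26 in s10 of Sham. CTEPH libraries s3, s4, s5 and s9 lay below all Sham libraries, while s1 was the highest of the 10. The means were 13.22 ± 0.37 in CTEPH and 13.32 ± 0.24 in Sham (SD, n = 5 per group), and the difference of -0.10 ± 0.18 (SE; 95% interval -0.49 to 0.30) did not pass the test (limma adjusted p = 0.814). ATF4 is controlled to a large part at translation, which transcript values do not measure.

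The libraries differed in which of the 10 genes stood out. In s5, 4 genes reached their highest value of all libraries, namely PHGDH, MTHFD2, MTHFD1L and ALDH1L2, and the mean over the 10 genes was 0.80 above the Sham mean on the log2 scale. In s1, SHMT2 and ATF4 were at their highest, SHMT1 was near the Sham mean, and the mean over the 10 genes was 0.60 above Sham. The same mean was 0.43 in s4, 0.47 in s9 and -0.11 in s3. Library s3 thus had raised PHGDH, by 0.99 over the Sham mean, and low SHMT1, by -1.41, with PSAT1, MTHFD1 and MTHFD2 near Sham and PSPH at -1.21.

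**Figure D4:**
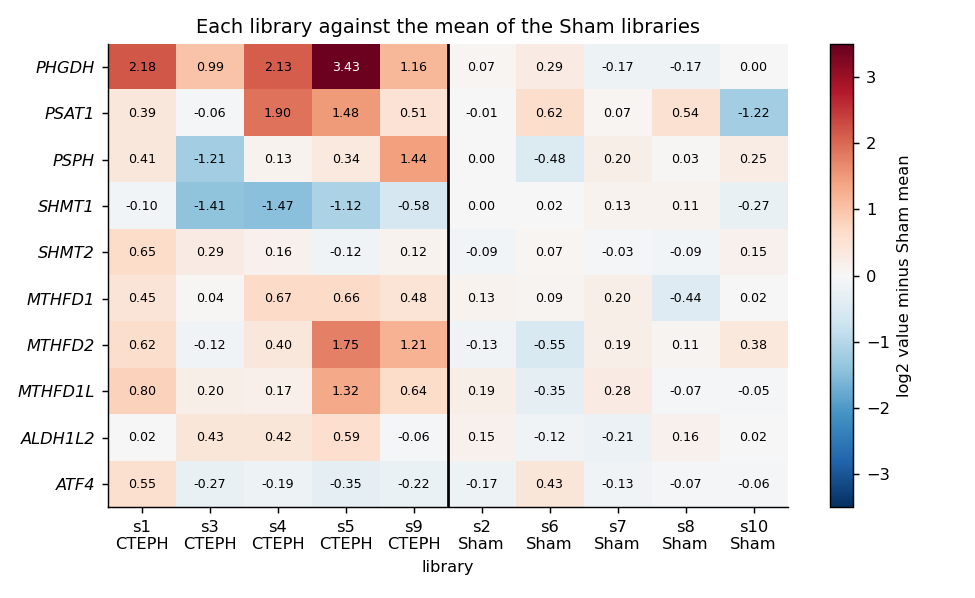
Log2 value minus the mean of the 5 Sham libraries (colour and printed number) for the 10 genes (rows) in the CTEPH libraries, left of the line, and the Sham libraries, right of it. The PHGDH row is positive in all CTEPH libraries, from 0.99 to 3.43, and the SHMT1 row is negative in all of them, from -1.47 to -0.10.

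Across the 10 libraries, deviations of the genes from their group means were compared pair by pair, as a description over pigs that share a tissue and an assay. The 45 pairs had a median Pearson r of 0.05. MTHFD1L with MTHFD2 had the highest r, 0.81, followed by ATF4 with SHMT2 at 0.79 and MTHFD2 with PSPH at 0.73. ALDH1L2 with SHMT1 had the lowest, -0.70. MTHFD1L and MTHFD2 were both highest in s5, and ATF4 and SHMT2 in s1, and r without those libraries was not computed. PHGDH had an r of 0.59 with MTHFD1L, 0.56 with MTHFD1, 0.51 with PSAT1 and 0.09 with ATF4. Of all genes with a symbol, those whose deviations were most like PHGDH were SCML4 (r = 0.928) and SLC41A2 (0.927). Those most like SHMT1 were CDC37L1 (0.963) and ORMDL1 (0.958), those most like MTHFD2 were MARCHF5 (0.978) and SYNCRIP (0.966), and those most like ATF4 were CTU2 (0.960) and INPP5B (0.956). For MTHFD1 they were PAMR1 (0.932) and MCM10 (0.921). For PSAT1 they were APOLD1 and DNMT3A, for PSPH CLDND1 and ZNF354B, for SHMT2 ZNF584 and TRMT2A, for MTHFD1L LMBRD2 and LEAP2, and for ALDH1L2 SPTBN1 and ATRN, at r of 0.886 to 0.980. Each of these was picked as the highest among all other genes with a symbol over only 10 libraries, and no p is given.

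Around these 10 genes, 8 lists of related genes were read from the same fit. Under housekeeping scaling the list medians kept their sign except for purine synthesis (-0.10), methionine (-0.04) and the regulators upstream of ATF4 (-0.05), which turned negative, and the aminoacyl-tRNA synthetases kept 11 of 12 positive differences. Of 22 measured ATF4 target genes 2 rose and none fell, with 14 positive and 8 negative differences and a median of 0.16. Centred on each gene's mean over all libraries, the list averaged 0.57 in CTEPH s1 and -0.08 to 0.16 in the other CTEPH libraries. In Sham it averaged -0.30 to 0.03. PYCR1, which makes proline in mitochondria, was 9.22, 8.62, 9.34, 9.19 and 8.03 in CTEPH s1, s3, s4, s5 and s9 and 7.73, 7.81, 7.76, 7.70 and 7.64 in Sham s2, s6, s7, s8 and s10 on the log2 scale. Every CTEPH library exceeded the closely grouped Sham libraries, and PYCR1 rose by 1.16 ± 0.24 (SE; limma adjusted p = 0.0164). ATF5, a transcription factor related to ATF4, was 9.72, 9.11, 9.32, 10.32 and 8.92 in CTEPH s1, s3, s4, s5 and s9 and 8.68, 8.27, 8.48, 8.39 and 8.18 in Sham s2, s6, s7, s8 and s10. Again the groups did not overlap, and ATF5 rose by 1.07 ± 0.24 (SE; limma adjusted p = 0.0243). The ATF5 call was lost without Sham s6 (0.0607), s7 (0.0501), s8 (0.0531) or s10 (0.0631), and ATF5 overlaps IL4I1 and NUP62 in the RefSeq gene table, neither of which was called. SLC7A5, an importer of large neutral amino acids, had a difference of 1.29 ± 0.40 (limma adjusted p = 0.0839) and did not pass.

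None of the 12 cytosolic aminoacyl-tRNA synthetases, which charge transfer RNA and are partly under ATF4, was called. Their differences were positive for 11 of 12, with a median of 0.29. MARS1, for methionine, had the smallest p, with a difference of 0.58 ± 0.16 (SE; limma adjusted p = 0.0558) and no overlap between the groups. AARS1, for alanine, had 0.53 ± 0.16 (adjusted p = 0.0853) and SARS1, for serine, had 0.46 ± 0.15 (adjusted p = 0.0900) in the same limma fit. None of 11 genes upstream of ATF4 or otherwise regulating the pathway was called, their median was 0.06, and none of them had an unadjusted limma p under 0.05. Their differences were positive for 6 and negative for 5. The 3 with the smallest p were DELE1 at -0.27 ± 0.13, EIF2S1 at 0.29 ± 0.15 and EIF2AK4 at -0.27 ± 0.17 (SE). DELE1 is a mitochondrial stress messenger, and phosphorylation of the translation factor subunit EIF2S1 favours ATF4. EIF2AK4 is the kinase that senses uncharged transfer RNA. These lists were chosen with earlier results of the same libraries known, and no test of any list was made.

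Of 15 other folate genes 1 rose and none fell, with 5 positive and 10 negative differences and a median of -0.10. TYMS, thymidylate synthase, which uses folate carbon to make a DNA building block, was 8.01, 8.55, 7.83, 9.04 and 8.13 in CTEPH s1, s3, s4, s5 and s9 and 4.96, 6.13, 6.43, 4.50 and 5.38 in Sham s2, s6, s7, s8 and s10 on the log2 scale. The groups were far apart, and TYMS rose by 2.83 ± 0.37 (SE; limma adjusted p = 8.8e-04). A further pair of that list pointed the other way without passing. MTR, methionine synthase, had -0.55 ± 0.17 (limma adjusted p = 0.0934). FPGS, which keeps folate in the cell, had -0.38 ± 0.13 (limma adjusted p = 0.110), with every CTEPH library below all Sham libraries.

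Purine synthesis, which uses formyl-folate, had no called gene among 12 measured, 6 positive and 6 negative differences and a median of 0.00. ADSS1, the muscle form of adenylosuccinate synthase, had the smallest p of that list, with -0.65 ± 0.19 (SE; limma adjusted p = 0.0742). ADSL, which acts both in building the purine ring and in making AMP, had -0.21 ± 0.13, and ATIC, which uses formyl-folate to close the ring, had 0.22 ± 0.17 (SE; limma adjusted p of 0.413 and 0.522). Of 10 methionine cycle and salvage genes 1 rose and none fell, with 7 positive and 3 negative differences and a median of 0.07. MTAP, which recovers methionine from a product of polyamine synthesis, averaged 8.56 ± 0.15 in CTEPH and 7.80 ± 0.21 in Sham (SD, n = 5 per group) and rose by 0.76 ± 0.17 (SE; limma adjusted p = 0.0228). The groups did not overlap for MTAP, but the call was lost without CTEPH s4 (0.0509) or s5 (0.0558), without Sham s2 (0.0571), s7 (0.0596) or s10 (0.0622), and under housekeeping scaling (0.0706). ENOPH1, of the same salvage route, had 0.35 ± 0.13 (SE; limma adjusted p = 0.151), without overlap between the groups, and AHCY, which clears the product of methylation reactions, had 0.50 ± 0.19 (SE; limma adjusted p = 0.154).

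None of 14 genes that use serine or glycine was called, with 5 positive and 9 negative differences and a median of -0.04. GNMT, which methylates glycine, had -1.04 ± 0.33 (SE; limma adjusted p = 0.0938), and AMT, a part of the glycine cleavage system, had -0.68 ± 0.42 (SE; limma adjusted p = 0.396). CBS, which joins serine to homocysteine, had 1.94 ± 0.78 (SE; limma adjusted p = 0.181), and its recovered counts were 42, 24, 42, 14 and 14 in CTEPH s1, s3, s4, s5 and s9 and 13, 23, 8, 0 and 6 in Sham s2, s6, s7, s8 and s10. Without Sham s8, the library at 0, the CBS difference was 1.08 ± 0.40 (SE; limma adjusted p = 0.190). None of 11 serine and glycine transporters was called, with 8 positive and 3 negative differences and a median of 0.28. The 3 with the smallest p were SLC38A1 at 0.87 ± 0.31, SLC38A2 at 0.69 ± 0.25 and SLC1A4 at 0.93 ± 0.34 (SE), with limma adjusted p of 0.136 to 0.138.

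**Figure D5:**
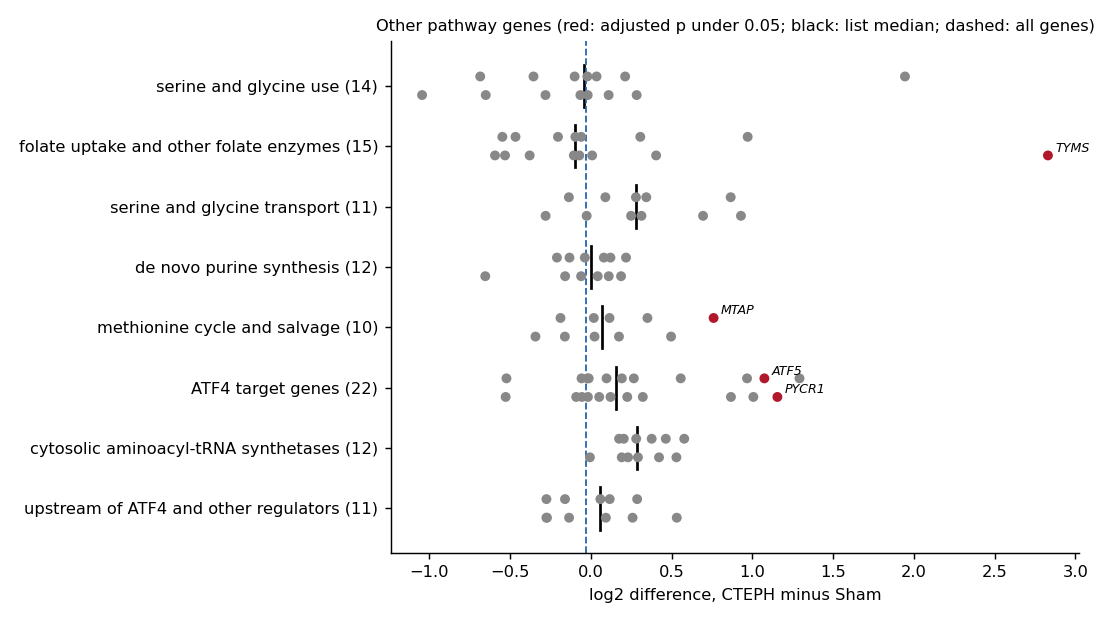
Log2 difference between CTEPH and Sham (x axis) of every measured gene of 8 related lists (rows, number of genes in brackets). Red points passed an adjusted p of 0.05, black bars are list medians and the dashed line is the median over all genes, -0.03. The 4 red genes are TYMS, MTAP, ATF5 and PYCR1, all to the right.

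Marker genes of dividing cells were read from the same fit. All 9 measured markers of 11 listed rose in CTEPH, with a median of 3.60, and none was at 0, while MKI67 and RRM2 had no row under those symbols. UBE2C, KIF20A, CCNB1, BUB1, TOP2A, CDK1, MCM2 and PLK1 rose by 1.45 (PLK1) to 4.66 (UBE2C) and were called with any single library left out. AURKB rose by 0.90 ± 0.24 (SE; limma adjusted p = 0.0487) with overlapping groups. Its call was lost, at adjusted p of 0.0581 to 0.115, without any 1 library other than CTEPH s1, and also under housekeeping scaling (0.0865), with low genes dropped (0.0529), without the intensity trend (0.0685) and with voom (0.0621).

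The log2 of the summed linear values of the 9 markers was 11.62 to 13.15 in CTEPH and 9.42 to 9.96 in Sham. The mean of their centred log2 values was 0.75 in s1, 1.12 in s3, 2.05 in s4, 2.24 in s5 and 1.89 in s9 of CTEPH and -1.87 to -1.44 in Sham. From highest to lowest in CTEPH, this mean ran s5, s4, s9, s3 and s1. PHGDH ran s5, s1, s4, s9 and s3, and TYMS ran s5, s3, s9, s1 and s4, so the 3 orders differed. The part of dividing cells in the values of PHGDH, TYMS and the other genes was not tested. In tissue of mixed cells, fewer cells of a type and less RNA per cell cannot be told apart.

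Of 7 cardiomyocyte markers, with 4 positive and 3 negative differences and a median of 0.01, MYL2 rose by 0.99 ± 0.21 and CSRP3 by 0.95 ± 0.21 (SE; limma adjusted p of 0.0173 and 0.0239). The MYL2 call was lost without CTEPH s4 (0.0509), and that of CSRP3 without CTEPH s4 or s5 or Sham s2, s6 or s10 (0.0571 to 0.0649). All 7 endothelial markers had negative differences, with a median of -0.35, and of them TEK fell by 0.78 ± 0.17 (SE; limma adjusted p = 0.0205). The TEK call was lost without CTEPH s3 or s4 or Sham s6, s8 or s10 (0.0508 to 0.0576). Of 4 smooth muscle markers, with 3 positive differences, 1 negative and a median of 0.15, CNN1 rose by 1.98 ± 0.47 (SE; limma adjusted p = 0.0294). That call was lost without CTEPH s3 or s5 or Sham s2, s6, s8 or s10 (0.0599 to 0.0723), without the intensity trend (0.0595) and with a robust variance prior (0.0543). No marker of fibroblasts (8 measured), macrophages (8), T lymphocytes (3) or adipocytes (2) was called, and their medians were 0.07, 0.30, 0.31 and -0.05 in that order.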

How the data were processed

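Right ventricular RNA of 10 pigs, 5 CTEPH and 5 Sham, was sequenced, 1 library per pig, per the labels. The labels give polyA RNA as the molecule but name a stranded kit for total RNA. Per the submitters' processing notes, the tools included featureCounts (no version), edgeR 3.36.0, limma 3.50.0, cutadapt 1.15, FastQC 0.11.5 and bcl2fastq 2.18.12, with the build Sscrofa11.1. For the aligner, annotation, strand setting and low-count filter, no entry is given in these sources.

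The authors deposited log2 values for 15638 Ensembl genes, of which 12378 matched a symbol. The libraries share nearly 1 distribution, so a change common to most genes cannot appear. The values equal means over libraries of a log2 count at equal rank, which gave back 134239 whole counts within a tolerance of 5.01e-09, up to a log2 value of 11.63. Total depth is unknown. Relative depth is the median ratio over 11411 genes with at least 5 counts in every library.

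The comparison used limma 3.58.1 (R 4.3.3) with an intensity trend, no covariate, a two-sided test and Benjamini-Hochberg adjustment over all genes. The procedure was run on simulated data in which each gene had the same spread in both groups. That run therefore did not cover the wider spread of the 10 genes in CTEPH. The 10 genes, the related lists and the tests were chosen with earlier results of these data known. The text names the 10 genes, the called genes and the 3 genes of smallest p of each of 8 related lists, the called marker genes, and for each of the 10 the 2 genes of most similar deviations. Alternatives were no intensity trend, a robust variance prior, library weights, the lowest 25% of genes dropped, housekeeping scaling, voom on recovered counts, exact permutation for the 10 genes, and each library left out. Coordinates came from RefSeq, matched by symbol and counted from 1. Promoter and protein sequences are not analysed here. Nothing beyond 1 library per pig says how replicates were made.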

Additional observations from a re-analysis of the deposited data

Results flagged for a closer look

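In 6 of 96 groups of 5 libraries, 1 library stood apart from the other 4 by more than Dixon's 95% critical value of 0.71 (the gap to the nearest library over the whole range), where chance flags about 1 in 20 groups. All values are on the log2 scale. For ATF4, CTEPH library s1 had 13.87 with its nearest CTEPH library at 13.13, and Sham library s6 had 13.75 with its nearest Sham library at 13.26. For MTHFD1, Sham library s8 had 10.21 with its nearest at 10.68. Sham library s8 also stood apart for SLC38A2, a transporter of small neutral amino acids, with 13.17 against a nearest value of 12.44, and for CBS, with 0.16 against 3.98, where its recovered count was 0. For DELE1, CTEPH library s3 had 12.36 with its nearest at 12.02.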

How the results depend on the processing

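Limma calls over all genes numbered 723, with 443 higher and 280 lower in CTEPH. With library weights they were 1269, 722 and 547. With the 25% of genes lowest in mean removed, 273 were higher, and voom on recovered counts left 182 lower. Leaving out 1 library at a time gave 401 to 961 calls, 270 to 570 higher and 117 to 392 lower. Of the 10 genes 2 were called, against 1 without the intensity trend, which lost SHMT1 (limma adjusted p = 0.0721), and 1 with the lowest 25% dropped, where PHGDH was not among the genes tested. Exact permutation put 4 of the 10 under an unadjusted p of 0.05, and it was not run for the other genes of the table. Unadjusted limma p was under 0.05 for 5 of the 10 and for 20.3% of all genes tested. Leaving out 1 library left 1 to 2 of the 10 called. PHGDH was called in all 10 fits without 1 library and in the other 5 that tested it, while SHMT1 was called in 2 of 10 and 5 of 6. PSPH reversed to -0.057 with library weights, and without 1 library it ranged from -0.083 (without CTEPH s9) to 0.58. ATF4 ranged from -0.26 to 0.0103, reversing without Sham s6. No paired analysis was possible because each library number occurs once. Counts of 13 to 38 for PHGDH in Sham limit its fold change.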
